A study of Mus musculus with 7 samples.

Results

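The genes described here are the axon guidance ligands and receptors of the mouse: semaphorins (Sema), ephrins (Efna, Efnb), Slits and netrins (Ntn) on the ligand side, and plexins (Plxn), Eph receptors (Epha, Ephb), Robo receptors, the Unc5 receptors and Dcc on the receptor side. They were chosen by gene symbol alone, as protein-coding genes of these families in the RefSeq table of the mouse build mm10, without Slitrk and Ntng. The rule found 67 genes, 35 ligands and 32 receptors, among 21883 protein-coding genes on the 19 autosomes, X and Y. Each was placed against a list of 1437 lamin-associated domains (LADs) of iMEF, cultured mouse embryonic fibroblasts. The study mapped Lamin B1, a filament protein under the nuclear envelope, with CUT&RUN, where a nuclease tethered to an antibody cuts out the DNA next to the target. The 7 libraries comprised 2 of Lamin B1, 2 of control IgG, 1 of H3K14ac and 1 with each of 2 antibodies to H3K9me2. The labels name no treatment or genotype, and the file name alone calls the list wild type and merged. The samples' labels name iMEF as 1 cell line, while the series' design text describes several lines derived independently from 1 mouse colony, and which line gave which Lamin B1 library is not given in the sources used here. That the list pools both Lamin B1 libraries is inferred from that name and is stated in no label. It gives domain positions only, so no gene has a value per library, a signal strength or a replicate error, and the read depth is unknown. The list holds no expression, so the fibroblast label could be set only against positions: none of 8 genes of fibroblasts (Thy1, Vim, Fn1, Pdgfra, Pdgfrb, Col3a1, Col1a1 and Col1a2) had its midpoint in a LAD. All 8 are shorter than 100 kb, and 22.5% of all protein-coding genes that short were in LADs, so this count says little about the label.

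LADs are long, mostly gene-poor stretches of chromatin at the nuclear periphery, in which genes are often silent. Axon guidance genes encode a wiring system of the developing nervous system that other tissues, such as vessels, also use. Secreted or membrane-bound ligands attract or repel a growing axon through receptors on its surface. Secreted class 3 semaphorins act mostly through plexins with neuropilins as co-receptors, ephrins bind Eph receptor tyrosine kinases on a neighbouring cell, Slits bind Robo receptors, and netrins attract through Dcc and repel through Unc5 receptors.

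Of the 67 genes, 14 (20.9%) had their midpoint in a LAD, close to the 23.8% of all protein-coding genes that did. Placement differed by role. Among the receptors 13 of 32 (40.6%) lay in a LAD, and among the ligands 1 of 35 (2.86%), which was Sema6d. The receptors in LADs were Epha3, Epha4, Epha5, Epha6, Epha7, Ephb1, Ephb6, Robo1, Robo2, Unc5c, Unc5d, Dcc and Plxna2. The receptor families were not alike. Plexins were in LADs in 1 of 9 cases (11.1%), below the share of all genes. Eph receptors were in 7 of 14, Robo receptors in 2 of 4 and netrin receptors in 3 of 5. The shares by bases were higher in both roles. The receptor genes spanned 8.48 Mb, of which 7.17 Mb (84.5%) lay in LADs, and the ligand genes spanned 4.42 Mb, of which 0.596 Mb (13.5%) did. Over all protein-coding genes 34.1% of the bases were in LADs. Shares by bases weigh the longest genes most. Sema6d alone supplied 0.578 Mb of the ligand bases in LADs. Robo1, Robo2, Dcc and Epha6 supplied between 0.969 and 1.56 Mb each of the receptor bases in LADs. The list offers no replicates and the genes of a family share ancestry and sometimes a domain, so the difference between ligands and receptors is a description and was not tested.

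**Figure D1:**
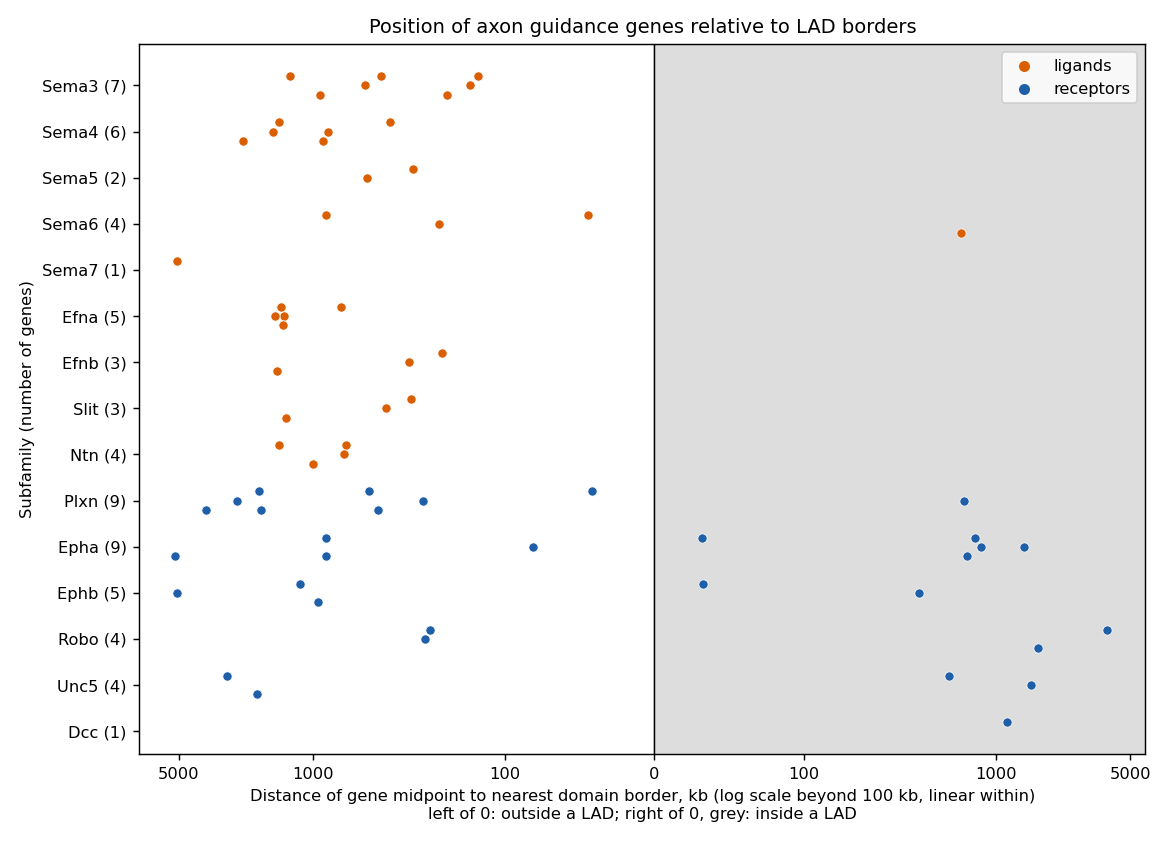
Distance of each gene's midpoint to the nearest domain border in kb, by subfamily, on an axis that is linear within 100 kb and logarithmic beyond. Points in the grey area on the right lie inside a LAD, where 13 receptors and 1 ligand are found, and points on the left lie outside.

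The promoters of 6 of these genes show what kind of start site was found on each side of the borders. For each gene the bases directly before the annotated gene are given, 5′ to 3′, from the RefSeq promoter table of GRCm38.p6, which is the build mm10. Capitals mark CG, the CpG dinucleotide. Unc5c, Epha3 and Sema6d had their start site in a LAD. Epha7 began outside and entered a LAD downstream. Epha8 lay farthest from any LAD of all 67 genes, and Sema3d is a CpG-poor promoter outside LADs.

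Unc5c (chr3:141465314-141465563, plus strand): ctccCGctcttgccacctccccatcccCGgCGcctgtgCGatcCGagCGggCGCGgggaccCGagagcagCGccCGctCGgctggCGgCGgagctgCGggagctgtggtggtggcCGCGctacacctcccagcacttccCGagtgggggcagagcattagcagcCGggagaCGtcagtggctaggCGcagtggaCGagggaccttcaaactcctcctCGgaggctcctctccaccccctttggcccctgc

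Epha3 (chr16:63864176-63864425, minus strand): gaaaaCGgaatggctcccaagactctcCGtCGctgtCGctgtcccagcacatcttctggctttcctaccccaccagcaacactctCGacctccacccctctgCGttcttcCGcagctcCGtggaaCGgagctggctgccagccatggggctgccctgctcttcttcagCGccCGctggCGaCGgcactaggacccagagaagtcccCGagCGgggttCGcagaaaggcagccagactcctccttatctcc

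Sema6d (chr2:124089719-124089942, plus strand): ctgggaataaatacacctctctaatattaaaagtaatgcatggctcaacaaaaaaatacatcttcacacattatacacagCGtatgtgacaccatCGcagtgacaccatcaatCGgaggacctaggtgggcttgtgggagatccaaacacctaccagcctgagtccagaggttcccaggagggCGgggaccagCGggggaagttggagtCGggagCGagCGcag

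Epha7 (chr4:28812881-28813065, plus strand): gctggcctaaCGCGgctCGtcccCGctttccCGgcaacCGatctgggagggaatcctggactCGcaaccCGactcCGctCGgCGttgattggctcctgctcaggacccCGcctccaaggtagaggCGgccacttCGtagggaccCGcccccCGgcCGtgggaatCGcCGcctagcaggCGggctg

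Epha8 (chr4:136956860-136957066, minus strand): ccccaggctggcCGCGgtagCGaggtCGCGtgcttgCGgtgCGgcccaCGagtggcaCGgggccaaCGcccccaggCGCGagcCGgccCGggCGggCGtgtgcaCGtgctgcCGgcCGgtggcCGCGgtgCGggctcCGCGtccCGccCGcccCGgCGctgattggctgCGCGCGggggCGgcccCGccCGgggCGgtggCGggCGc

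Sema3d (chr5:12382916-12383160, plus strand): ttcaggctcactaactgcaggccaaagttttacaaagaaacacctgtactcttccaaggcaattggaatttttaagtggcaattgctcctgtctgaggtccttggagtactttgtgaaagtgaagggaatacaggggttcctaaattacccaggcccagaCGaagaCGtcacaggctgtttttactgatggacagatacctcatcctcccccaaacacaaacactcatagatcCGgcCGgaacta

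The stretch before Unc5c, a netrin receptor of the repulsive class, held 23 CpG in 250 bases although its start lay in a LAD. The stretch before Epha3 held 16 in 250 bases and that before Sema6d held 8 in 224 bases. Outside LADs the count ran from 37 in 207 bases before Epha8 to 4 in 245 bases before Sema3d. Epha8 and Sema3d were picked for their position and their low count, so the range they span is a result of that choice.

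Over the 57 genes with a start site in the table, the 250 bases before the most upstream listed start were counted. The start lay in a LAD for 11 of them, against 23.9% of 17491 protein-coding genes with a listed start. These 11 promoters held a median of 15 CpG, from 8 for Robo2 to 27 for Ephb6, and 9 of the 11 held at least 10. The 46 promoters outside held a median of 16.5, from 1 for Sema4d to 46 for Epha8, so the groups overlapped over the whole range of the first. The listed start of 10 of the 57 genes lay more than 1 kb inside the annotated gene, by 636 kb for Robo1, 272 kb for Sema3a and 37.0 kb for Sema4d, so these stretches are not those before the gene. Without the 10 genes the 8 promoters in LADs held a median of 15, from 8 to 23, and the 39 outside a median of 16, from 2 to 46. Of all promoters in LADs, by contrast, 16.7% held at least 10 CpG and the median was 2, while outside LADs 61.0% held at least 10 and the median was 13. Without olfactory and vomeronasal receptor genes, 22.9% of 3045 promoters in LADs held at least 10, with a median of 3. Gene length moved with this measure. Among genes of at least 100 kb, 49.1% of 534 promoters in LADs held at least 10 CpG, with a median of 9, and 8 of the 10 axon guidance genes of that length in LADs did, with a median of 14.5. The part of gene length in the difference was not tested beyond these values. The motif counted was CG, which reads the same on both strands, and 92.6% of all promoters held at least 1.

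**Figure D2:**
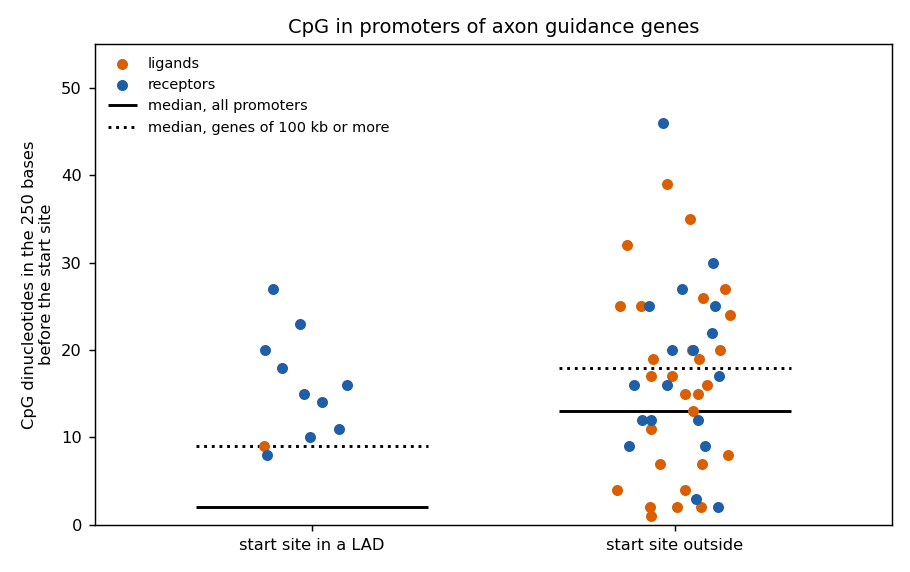
Number of CpG dinucleotides in the 250 bases before the start site of 57 axon guidance genes, with the start inside a LAD on the left (11 genes) and outside on the right (46 genes). Solid lines mark the medians of all promoters, 2 and 13, and dotted lines those of genes of at least 100 kb, 9 and 18. All 11 points on the left lie above the solid line.

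Among the Eph receptors, 7 of 14 lay in LADs. EphA receptors bind mostly the lipid-anchored ephrin-A ligands, and 5 of the 9 genes were in a LAD. Epha3 (chromosome 16, 63543532 to 63864175) was enclosed by a LAD of 1.85 Mb with 672 kb of domain below the gene and 855 kb above it. Epha6 (chromosome 16, 59641433 to 60610911), at 969 kb the longest Eph gene, lay in the preceding domain of 4.01 Mb. Epha5 (chromosome 5, 84054761 to 84417818) and Epha4 (chromosome 1, 77367182 to 77515107), a receptor known for repelling spinal cord axons, lay wholly inside domains of 2.49 and 2.43 Mb. These 4 genes were covered over their whole length, and their midpoints were between 709 kb and 1.40 Mb from a border.

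Epha7 was the exception among the EphA genes in LADs. It runs from 28813066 to 28967503 on chromosome 4, on the plus strand, and 70.7% of it (109 kb) was in a domain of 215 kb, from 28858333 to 29073331. Its start site was in a gap of 97.5 kb between LADs and 45.2 kb short of the domain, so the promoter shown above and the first part of the gene were free of LAD and the downstream part was covered. Both listed starts lay in that gap. The domain held no other protein-coding gene midpoint.

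The other EphA genes were short and outside. Epha2, Epha8 and Epha10 measured 28.2, 27.4 and 36.3 kb, and Epha1 measured 14.8 kb. Epha8 lay 5.23 Mb from the nearest border, in a LAD-free interval of 10.5 Mb on chromosome 4 that also held Ephb2 and Epha2. Epha1 was nearest to a LAD, in a gap of 235 kb on chromosome 6 with its midpoint 81.1 kb from the border.

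EphB receptors, which bind the transmembrane ephrin-B ligands, were in LADs in 2 of 5 cases. Ephb1 (chromosome 9, 101922128 to 102354693) was inside a domain of 1.24 Mb. Ephb6 (chromosome 6, 41603834 to 41620509), which encodes a receptor without kinase activity, was the single gene under 100 kb among the 14 in LADs. It measured 16.7 kb and started 24.3 kb from the edge of a domain of 632 kb. The upper border of that domain is the lower edge of the gap that held Epha1, so these neighbours, 738 kb apart, lay on opposite sides of it. Ephb2, Ephb3 and Ephb4 were outside. Ephb4, the partner of ephrin-B2 in the separation of veins from arteries, was 940 kb from a border and Ephb2 was 5.08 Mb from one.

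All 8 ephrin genes were outside LADs. Efna1, Efna3 and Efna4 stand side by side on chromosome 3, between 10.4 and 33.0 kb apart, in a gap of 7.08 Mb that also held Sema4a. Efna2 and Efnb3 lay in gene-dense gaps, with 60 and 63 other protein-coding genes within 500 kb. Efna5, Efnb1 and Efnb2 lay in sparser gaps. Efna5, at 278 kb the longest ephrin gene, had no other protein-coding gene midpoint within 500 kb, and its gap of 3.60 Mb held 6 genes in all. Efnb1 on X had 4 others within 500 kb and Efnb2 on chromosome 8 had 1, and they were 316 and 211 kb from a border. No LAD lay within 1 Mb of the midpoint of Efna5, nor of Efna1, Efna3, Efna4 and Efnb3.

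Robo receptors divided evenly. Robo1 (chromosome 16, 72027518 to 73047491) and Robo2 (73891976 to 75447443), of 1.02 and 1.56 Mb, are with Dcc the 3 longest of the 67 genes and share 1 domain of 8.66 Mb. Robo1 was the gene deepest in a LAD, 3.79 Mb from a border. All 3 listed starts of Robo2 lay in this domain. Robo3, which acts in axons that cross the midline, and Robo4, known from blood vessels, measured 17.4 and 12.1 kb and lay 2.02 kb apart on chromosome 9. Both were outside, in a gap of 972 kb, with 51.4% of the sequence within 1 Mb of each midpoint in LADs.

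None of the 3 Slit genes, which encode secreted ligands of Robo receptors, overlapped a LAD. They are long, with 149 kb for Slit1, 326 kb for Slit2 and 587 kb for Slit3. Slit3 is longer than 9 of the 13 receptor genes in LADs. It lay in a gap of 1.08 Mb with LAD beginning 121 kb below the gene and 370 kb above it. Slit2 was in a gap of 1.56 Mb with 1 other protein-coding gene, and its upper end was 144 kb from the next LAD. Slit1 had no LAD within 1 Mb of its midpoint.

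Netrin receptors were in LADs in 3 of 5 cases. Dcc, the attractive receptor, is 1.10 Mb long (chromosome 18, 71253613 to 72351228) and was the single protein-coding gene with its midpoint in a domain of 2.88 Mb. Unc5d (chromosome 8, 28646717 to 29219671) and Unc5c (chromosome 3, 141465564 to 141834924) were enclosed by domains of 3.56 and 2.97 Mb. Unc5a and Unc5b, of 60.9 and 69.0 kb, were outside at 1.96 and 2.80 Mb from a border. The 4 netrin genes were outside. Ntn1, the classical attractant, measured 177 kb and lay 1.00 Mb from the nearest border. Ntn3, Ntn4 and Ntn5 were between 673 kb and 1.49 Mb away.

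Of the 9 plexins, the receptors of semaphorins, 1 was in a LAD. Plxna2 (chromosome 1, 194619791 to 194816869) lay wholly in a domain of 2.50 Mb that held 14 protein-coding genes. Plxna4, at 444 kb the longest plexin gene and the single receptor of at least 300 kb outside, had a LAD ending 45.0 kb below it but none reaching it. Plxnb1, a receptor of Sema4d, had its midpoint 41.9 kb from a border, with 28.8 kb between the end of the gene and the next LAD. Plxna3 and Plxnb3 shared a gap of 5.07 Mb on X. Plxna1 was the plexin gene farthest from a border, at 3.61 Mb. Plxnb2, Plxnc1 and Plxnd1, the last a receptor of Sema3e in vessels, were between 460 kb and 1.86 Mb from a border.

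Semaphorins were in a LAD in 1 of 20 cases. Sema6d (chromosome 2, 124089943 to 124667789), a transmembrane semaphorin, measured 578 kb and was the single protein-coding gene with its midpoint in a domain of 2.24 Mb. Both of its listed starts were in the domain. Sema6a, a relative that binds plexins of the A class, was the other semaphorin that touched a LAD. The first 18.6 kb by coordinate (14.8%) of its 126 kb were in a domain of 95 kb, and the rest occupied most of a gap of 115 kb, with 7.67 kb from the gene to the next LAD, of 2.35 Mb. Its midpoint was outside. Counting any overlap thus gave 15 of 67 genes, against 25.1% of all protein-coding genes, and counting whole genes gave 13, against 21.8%.

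The 7 class 3 semaphorins were all outside, including 4 long genes in gene-poor surroundings on chromosome 5. Sema3d, Sema3a and Sema3e follow one another in a single gap of 1.94 Mb with 6 protein-coding genes. The gap began 48.4 kb below Sema3d and ended 23.1 kb above Sema3e, so the 3 genes took up the gap from near one edge to near the other. Sema3c, of 155 kb, lay in a gap of 1.02 Mb with 47.5% of the sequence within 1 Mb of its midpoint in LADs. Sema3b and Sema3f, 72.3 kb apart on chromosome 9, and Sema3g were short genes in gene-dense gaps. The 6 class 4 semaphorins, which are membrane-bound, were between 396 kb and 2.30 Mb from a border. Sema5a, of 452 kb, had a LAD ending 73.7 kb below it. Sema5b, Sema6b and Sema6c were between 220 and 854 kb from a border. Sema7a, a lipid-anchored semaphorin, was 5.08 Mb from one.

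Receptors in LADs were longer than those outside. Over all protein-coding genes the medians ran the other way, with 10.2 kb in LADs and 18.6 kb outside. Among all those of at least 100 kb they ran the same way as in the receptors, with 250 kb in LADs and 151 kb outside. The 13 receptors in LADs had a median length of 369 kb and the 19 outside a median of 27.4 kb, although single genes overlapped, from 16.7 kb for Ephb6 inside to 444 kb for Plxna4 outside. Of the receptors of at least 100 kb, 12 of 15 were in LADs, and of the shorter ones 1 of 17. Among all protein-coding genes the shares were 33.8% of those of at least 100 kb and 22.5% of shorter ones. Ligands of the same length did not follow. Of the 15 ligands of at least 100 kb, 1 was in a LAD, and of the 20 shorter ones none was. Under 30 kb, 1 of 12 receptors and none of 18 ligands were inside, against 25.0% of all protein-coding genes of that length. From 30 to 100 kb none of 5 receptors and none of 2 ligands were, against 15.7%, and from 100 to 300 kb 3 of 5 receptors and none of 10 ligands were, against 25.2%. Among genes of at least 300 kb, of which 62.6% were in LADs over the whole table, 9 of 10 receptors and 1 of 5 ligands were inside. The 4 such ligands outside were Slit2, Slit3, Sema3a and Sema5a. The long receptors were also longer than the long ligands, with medians of 369 and 206 kb, and the part of this in the difference was not tested beyond the length classes.

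**Figure D3:**
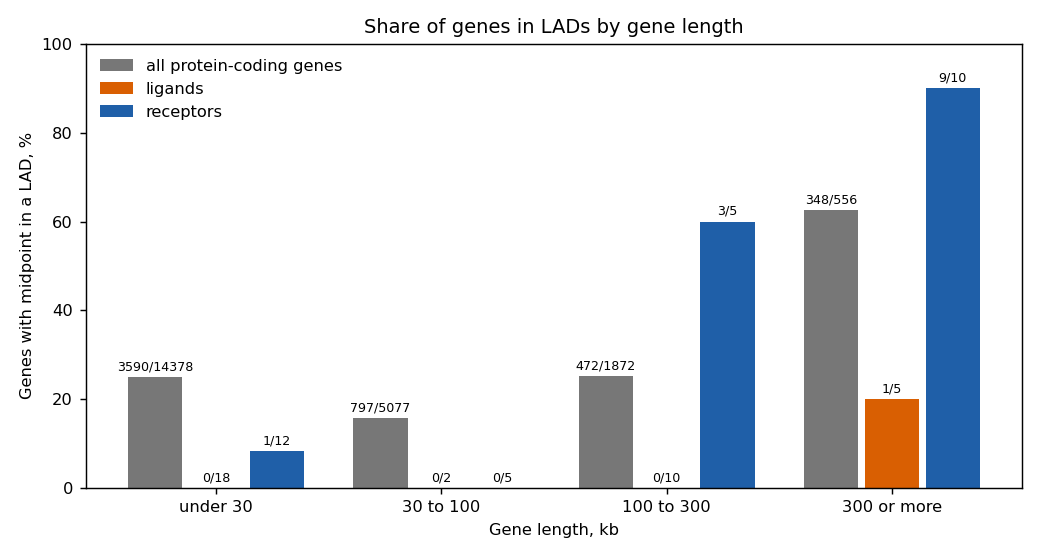
Percentage of genes with the midpoint in a LAD by gene length in kb, for all protein-coding genes (grey), ligands (orange) and receptors (blue), with the number inside over the number in the class above each bar. In the longest class 62.6% of all genes, 1 of 5 ligands and 9 of 10 receptors lay in a LAD.

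**Figure D4:**
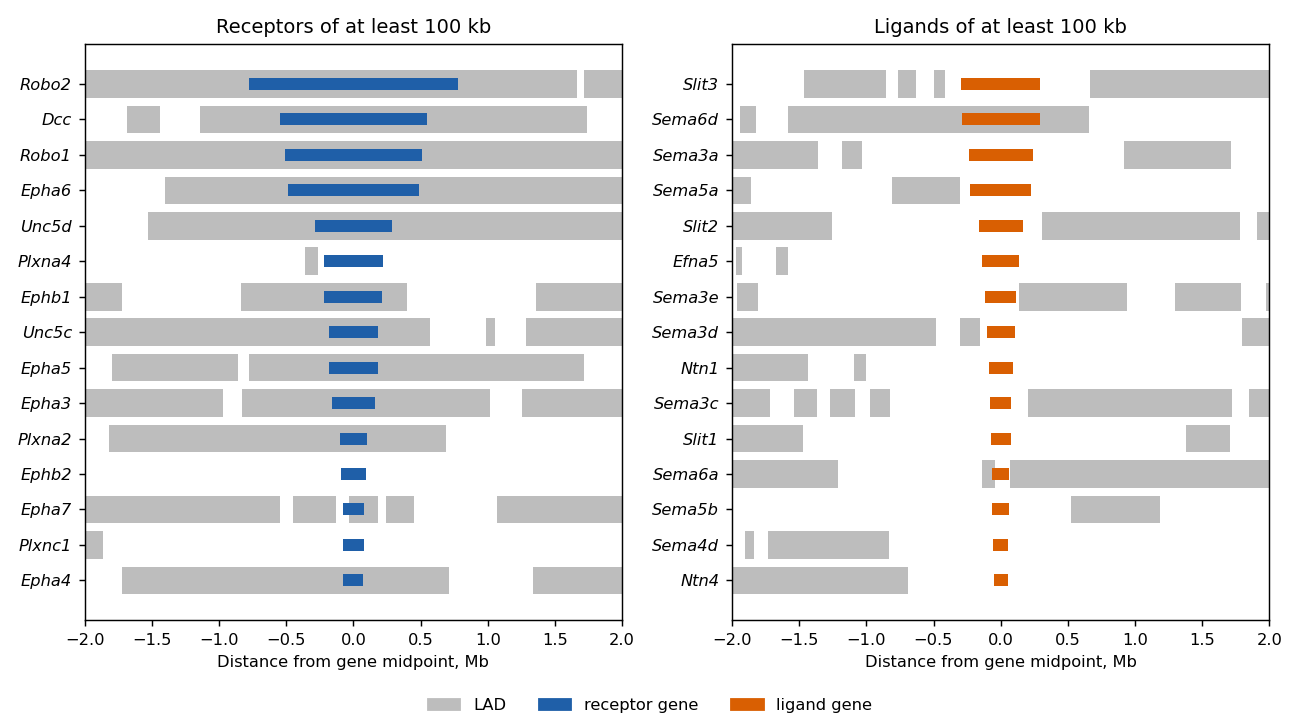
LADs (grey) within 2 Mb of the midpoint of the 15 receptor genes (blue) and 15 ligand genes (orange) of at least 100 kb, in Mb from the gene midpoint, ordered by gene length. Receptor genes mostly lie within grey bars, 12 of 15 by midpoint, and ligand genes mostly in the white between them, 14 of 15.

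Gene density around the genes was compared next. The 14 genes in LADs had a median of 0 other protein-coding genes with a midpoint within 500 kb, and Ephb6, with 18, was far above the rest, which had at most 4. The 53 genes outside had a median of 20. Over all protein-coding genes the medians were 12 in LADs and 16 outside, and over those of at least 100 kb they were 3 and 8. Genes in sparse surroundings were found on both sides. Of those with at most 4 such neighbours, 12 of 14 receptors were in LADs and 1 of 12 ligands, against 47.1% of all protein-coding genes in surroundings that sparse. With at least 100 kb of length in addition, the counts were 12 of 14 receptors and 1 of 10 ligands, against 55.9%. The receptors outside in this class were Plxna4 and Plxnc1. With 5 or more neighbours, 1 of 18 receptors and none of 23 ligands were inside, against 20.5%. LADs covered a median of 85.4% of the sequence within 1 Mb of the long receptors and 25.4% of that around the long ligands. Over all genes of at least 100 kb the median was 32.1%. The window is centred on the midpoint that decided the placement and includes the gene. The difference between long receptors and long ligands in this measure therefore follows in part from the counts above. The ranges overlapped, since the long receptors ran from 0% to 100% and the long ligands from 0% to 83.0%.

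**Figure D5:**
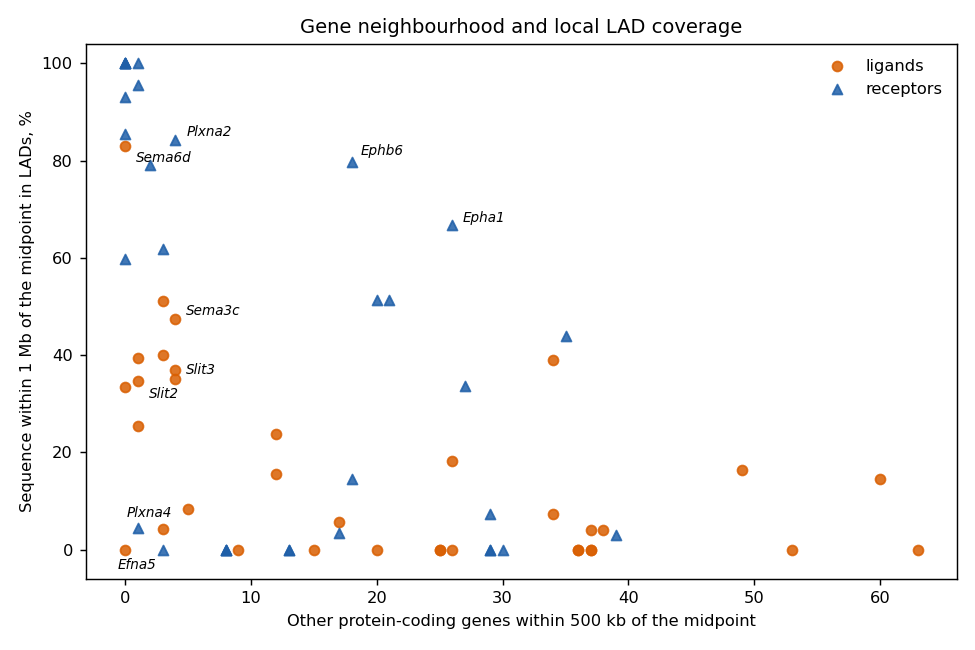
Percentage of the sequence within 1 Mb of each gene's midpoint that lay in LADs, against the number of other protein-coding genes within 500 kb, for 35 ligands (circles) and 32 receptors (triangles). At 0 to 4 neighbours 12 of 14 receptors lie at 59.8% or higher, and the ligands other than Sema6d at 51.2% or lower. These 12 and Sema6d are the genes of that class already placed in LADs by their midpoint.

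The domains that held these genes were long. The 14 genes lay in 13 domains with a median length of 2.49 Mb, from 215 kb for that of Epha7 to 8.66 Mb for that of Robo1 and Robo2. The median over all 1437 domains was 445 kb, but a gene is more likely to fall in a long domain, and the median domain of the 5207 protein-coding genes in LADs measured 1.78 Mb. The 13 domains together covered 35.7 Mb and held 85 protein-coding genes, or 2.38 per Mb, against 3.92 per Mb over all LADs.

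Other genes of these pathways were placed in the same way. Of 23 co-receptors, adhesion partners and further cues, 5 (21.7%) were in LADs, near the 23.8% of all protein-coding genes. They were the adhesion molecules Chl1, Nrcam and Dscam, of which Dscam also binds netrin, the receptor phosphatase Ptprd, and Flrt3, a ligand of Unc5 receptors. Both neuropilins, named after their placement was seen, were outside, Nrp1 at 113 kb and Nrp2 at 2.73 Mb from a border. Of 42 intracellular proteins of the pathway, 4 (9.52%) were in LADs. They were Srgap1, which acts downstream of Robo, Dpysl4, and the activators of small GTPases Tiam1 and Dock1, the latter with 54.0% of its length covered. Of the genes of at least 100 kb, 4 of 9 in the first list and 3 of 24 in the intracellular list were in LADs, against 33.8% of all protein-coding genes of that length.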

How the data were processed

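CUT&RUN was performed in iMEF cells with 7 libraries, and the data used here are 1 list of domains, taken from its file name alone to be the merged result of the Lamin B1 libraries. Per the labels' protocols, whole cells were bound to beads for Lamin B1. The submitters' processing notes name Bowtie2 and the build mm10. The domain caller, its threshold, the use of IgG or spike-in DNA and the way libraries were merged are not given in the sources used here. The authors deposited starts and ends in base pairs with a score of 0 in each line. Every domain length (100%) was a multiple of 2.5 kb to within 125 bp, and the precision of a border is unknown. The shortest gap was 52.5 kb, so a shorter LAD-free stretch at a gene cannot be seen in this list.

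Genes were positioned with RefSeq (GRCm38.p6). A gene counts as in a LAD when its midpoint lies in a domain. Start sites came from the RefSeq promoter table, as the most upstream start listed, and were found for 57 of 67 genes. Gene and domain positions count from 1. The placement of genes was tested on simulated data. No test over samples can be made from 1 merged list, so the values are counts, shares and medians. Most stand beside the same over all protein-coding genes, but the distances to a border do not. Genes named in full are those that overlap a LAD, those outside within 100 kb of a border, and the 5 farthest from any LAD. Other genes described singly, such as Slit2, Slit3, Efna5, Sema3c and Plxna4, were chosen after their values were seen. The genes and lists were chosen with earlier results of these data known, and the limits of 4 neighbours, 10 CpG and 1 Mb, the length classes and the 6 promoters shown were set after values were seen. Analyses used Python 3.11.15, numpy, pandas and scipy.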

Additional observations from a re-analysis of the deposited data

How the results depend on the processing

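The 14 genes were placed again under 11 alternatives. By gene ends, start sites, whole genes, any overlap or 50% of the bases, and with domains of at least 100 or 500 kb, gaps of at most 250 kb joined or borders moved by 10 kb, the count ran from 11 of 57 to 16 of 67. Genes that changed side were Epha7 (outside by its lower end, its start site, as a whole gene, and with domains of at least 500 kb), Sema6a (inside by its lower end, any overlap and joining) and Epha1 (inside with joining). Dcc and Unc5d have no listed start. The 15 long ligands had 1 or 2 in LADs and the 15 long receptors 11 or 12, or 9 of 12 by start site. These alternatives for long genes were added after the data were seen. The share of all protein-coding genes in LADs was 19.1% without olfactory and vomeronasal receptors, 20.7% with domains of at least 500 kb and 27.3% with joining. The 67 genes were at 19.4% with domains of at least 500 kb and at 23.9% with joining, below all genes under the same setting in both. Leaving out the olfactory and vomeronasal receptors put their 20.9% above the share of all genes. The median of 0 other genes per Mb around the genes in LADs became 1.75 with 1000 kb each side. Around the genes outside the median per Mb went from 20 to 18 with the same change. Of 208 alternative values, 207 stayed within the binomial interval of the reported share or within 1.5 times of the reported median. Most of the 208 are shares of single subfamilies of few genes, which could hardly leave such wide intervals. That for Dcc ran from 2.5% to 100% and that for the Robo genes from 6.76% to 93.2%. The interval also treats related genes as independent, so this count says little about how stable the shares are. No paired analysis was possible because the file is 1 merged list with no column per replicate, which also leaves no fit without a replicate. The depth is unknown, so how short a gap a deeper library would show was not tested.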

Other observations

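The genes that share a domain with an axon guidance receptor or ligand differed from place to place. The domain of Epha6 held 30 other protein-coding genes, of which 25 were olfactory receptor genes, and that of Ephb6 held 11 others, among them the calcium channel genes Trpv5 and Trpv6 and the taste receptor gene Tas2r139. Around Plxna2 there were 13 others, including the complement receptor gene Cr2 and Cd34. The domains of Dcc, Sema6d and Epha7 held no other protein-coding gene midpoint. Epha4 shared its domain with Pax3, a transcription factor of the neural tube and muscle precursors, and Ephb1 shared its domain with Ky. Robo1 and Robo2 shared theirs with 7 others, among them Nrip1 and Gbe1. No value of expression was used, so whether any of these genes is active in the cells was not tested.

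Outside LADs, 22 of the 53 genes lay more than 1000 kb from a border by their midpoint, 13 ligands and 9 receptors. The 34 ligands outside were at a median of 770.2 kb and the 19 receptors outside at a median of 939.6 kb, so the receptors that were not in a LAD were no nearer to one than the ligands by this measure. Inside LADs, 5 of the 14 genes lay more than 1000 kb from a border.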
